A study of Mus musculus with 6 samples.

Results

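Interferon-stimulated genes were compared in tibial cartilage of 3 mice labelled ADAM10 flox/flox-Col2a1-Cre (called mutants) and 3 mice labelled control, all of strain C57BL/6. The mutants carry loxP-flanked Adam10 alleles and a Cre recombinase driven by the promoter of Col2a1, a gene of chondrocytes. Adam10 encodes a protease of the cell membrane that cuts surface proteins such as Notch receptors. The labels do not say which alleles or agents the controls carry, the age of the mice or which exon is floxed, and Cre activity is limited to cells in which that promoter is or was active. The members were 39 genes listed by name, with no threshold on their signal. They were found through the RefSeq accession of the array probes, with 1 probe per gene, the one of highest mean processed signal. Of the 39, Mx1 and Mx2 were matched by no probe accession and are not analysed here. Oas3 was well above background on 0 of 6 arrays. That left 36 tested members among 25480 tested genes and transcripts.

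Interferons are cytokines released on infection or tissue damage. Type I interferons act through JAK kinases on a complex of STAT proteins and IRF9, which binds the interferon-stimulated response element (ISRE) in target promoters. Interferon gamma acts through STAT dimers, which bind a shorter palindromic STAT element. Many targets answer to both and several have a basal level in macrophages and other leukocytes. The members were set in 5 roles. There were 7 regulators and sensors, 23 antiviral effectors of the type I response, the chemokine Cxcl10, 5 interferon-inducible GTPases and 3 genes of antigen processing.

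Promoter sequence from RefSeq (build GRCm38.p6) was at hand for 30 members in 35 windows, each running from 250 bases before a transcription start to 50 bases after it. Dhx58, Zbp1, Usp18, Mx1, Mx2, Oas2, Rtp4, Parp14 and Iigp1 had no window. The windows were searched on both strands for the ISRE core (GAAA, any 2 bases, GAAA) and for the STAT element TTCNNNGAA. The ISRE core was found for 17 of the 30 members (56.7%), against 3.99% of all 27025 genes in the table. The STAT element was found for 9 of 30 (30%), against 9.55% of all genes. Cores can overlap, as the 3 of Isg15 do. The 250 bases before the start are printed for 6 members to show these differences in layout, 5′ to 3′ on the strand of the gene, with the searched letters in capitals. Isg15 has 3 ISRE cores in tandem, the nearest at -66, where positions count from the start to the first base of the match. Rsad2 has 1 core, on the other strand at -120, and the core of Cxcl10 lies at -213. Igtp has a STAT element at -45 beside an ISRE core at -34, Psmb8 a STAT element at -97 without a core, and Psmb9 neither.
Isg15 (chr4:156200819-156201068, minus strand): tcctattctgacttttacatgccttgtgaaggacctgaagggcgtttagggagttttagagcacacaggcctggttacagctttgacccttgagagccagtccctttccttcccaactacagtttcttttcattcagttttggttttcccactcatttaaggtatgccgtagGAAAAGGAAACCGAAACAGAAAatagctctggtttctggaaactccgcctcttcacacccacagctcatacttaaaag
Rsad2 (chr12:26456453-26456702, minus strand): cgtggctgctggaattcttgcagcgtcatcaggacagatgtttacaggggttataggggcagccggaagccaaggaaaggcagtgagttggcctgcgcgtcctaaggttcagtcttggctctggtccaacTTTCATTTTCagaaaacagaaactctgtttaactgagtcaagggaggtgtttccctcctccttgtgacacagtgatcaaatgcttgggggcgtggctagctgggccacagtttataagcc
Cxcl10 (chr5:92348890-92349139, minus strand): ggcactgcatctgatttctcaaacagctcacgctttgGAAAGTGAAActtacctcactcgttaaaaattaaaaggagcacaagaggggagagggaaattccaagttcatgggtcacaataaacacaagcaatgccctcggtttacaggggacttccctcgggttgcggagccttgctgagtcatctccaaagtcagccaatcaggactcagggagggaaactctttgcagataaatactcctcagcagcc
Igtp (chr11:58199306-58199555, plus strand): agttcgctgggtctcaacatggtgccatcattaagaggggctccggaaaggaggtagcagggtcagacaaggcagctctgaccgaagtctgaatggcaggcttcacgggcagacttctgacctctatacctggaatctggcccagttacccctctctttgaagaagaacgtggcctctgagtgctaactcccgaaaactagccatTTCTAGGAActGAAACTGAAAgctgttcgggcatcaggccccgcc
Psmb8 (chr17:34197945-34198194, plus strand): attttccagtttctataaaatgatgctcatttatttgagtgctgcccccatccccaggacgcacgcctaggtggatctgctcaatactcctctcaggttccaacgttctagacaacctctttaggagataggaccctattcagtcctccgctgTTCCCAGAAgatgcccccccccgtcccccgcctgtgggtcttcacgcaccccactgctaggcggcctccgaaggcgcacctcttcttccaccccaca
Psmb9 (chr17:34187331-34187580, minus strand): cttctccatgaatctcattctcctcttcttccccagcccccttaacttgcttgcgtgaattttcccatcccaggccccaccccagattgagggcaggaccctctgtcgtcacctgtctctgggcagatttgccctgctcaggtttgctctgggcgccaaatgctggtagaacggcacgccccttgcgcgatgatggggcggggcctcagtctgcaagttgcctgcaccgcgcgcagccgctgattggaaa

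**Figure D1:**
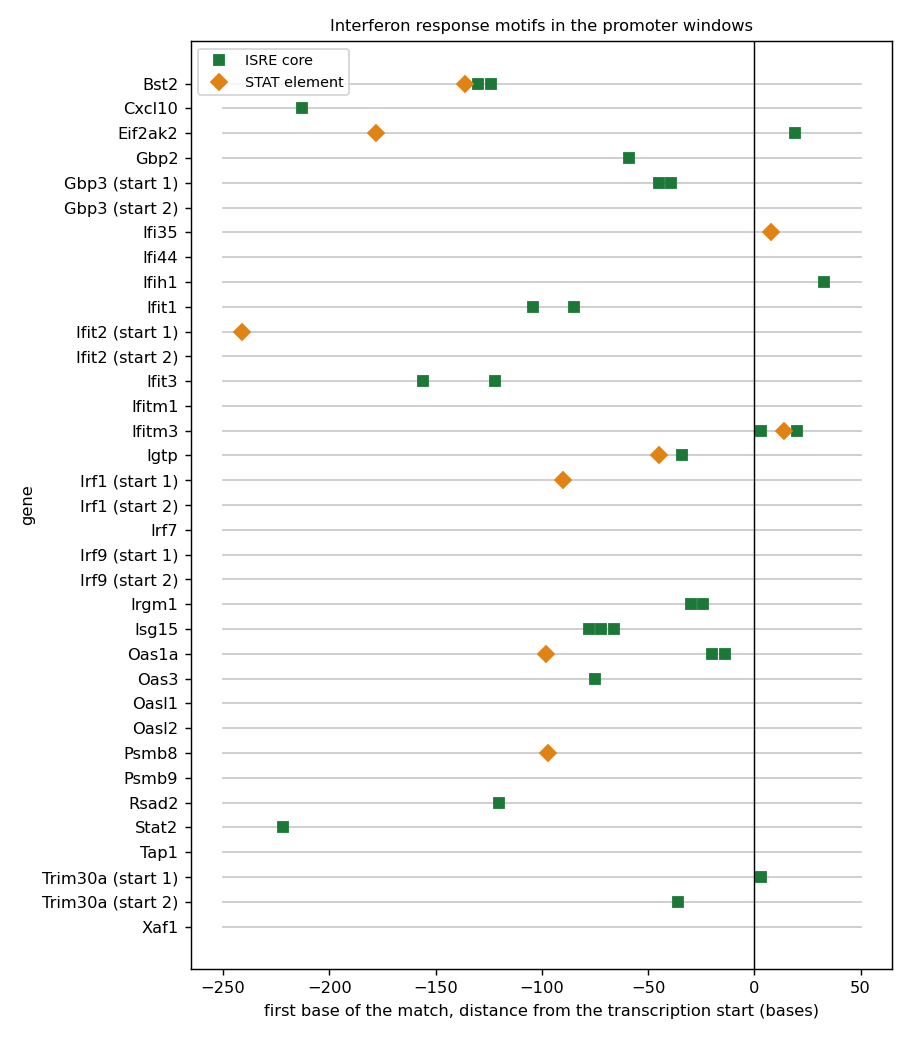
Position of motif matches in the promoter windows of 30 members. The horizontal axis is the distance in bases of the first base of a match from the transcription start, squares are ISRE cores and diamonds STAT elements; the 3 squares of Isg15 lie side by side, and 5 genes have a window for each of their starts.

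Before the members, the arrays themselves were compared. The 6 arrays shared 1 slide and 1 scan. Between 62.4% and 65.4% of spots were well above background, and saturated spots numbered 0. Values are log2 signals relative to the 75th percentile of the array, differences are mutant minus control, and levels of different probes are not comparable. The Adam10 probe read 0.15, -1.70 and 0.31 in mutants 1 to 3, against 1.61, 1.58 and 1.21 in controls 1 to 3. Its groups did not overlap, and the difference was -1.88 (SE 0.53, adjusted limma p 0.987). Whether that probe lies in the deleted part is not given in the sources used here. Mutant 2 and control 1 stood apart from the other arrays, at 71.2 and -55.3 on the first principal component of all tested genes (44.5% of the variance), with the other 4 between -14.0 and 15.2. The main counts are therefore also given without them. All 13 chondrocyte markers were well above background on every array. So were 11 of 11 endothelial, 9 of 10 osteoclast and 13 of 13 measured macrophage markers. In such bulk RNA, fewer cells of a type and less RNA per cell cannot be told apart.

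The members lay lower in mutants in 33 of 36 cases, with a median difference of -0.43. Over all 25480 tested genes and transcripts 40.0% lay below 0 and the median was 0.04. In the limma fit 0 members had a Benjamini-Hochberg adjusted p below 0.05 (smallest 0.987), as did 0.0% of all tested genes. At an unadjusted limma p below 0.05 there were 6 members (3.43% of all tested genes), of which 6 had lower signal in mutants (1.88% of all) and 0 had higher signal (1.55%). The second slide row held mutants 2 and 3 and no control. With the slide row as a block, the difference is therefore that of mutant 1 alone against the 3 controls. For these 6 members it ran from -1.33 for Cxcl10 to -0.34 for Ifi35. Leaving out control 1 or control 2 gave 2 members each at an unadjusted limma p below 0.05, and leaving out mutant 3 gave 10. The shares of all tested genes in those fits are not given here, so these counts are not read against a background. The groups did not overlap for 9 members with lower mutant values, against 3.75% of all genes, and for 1 with higher mutant values, against 5.19%. Without mutant 2 the median was -0.22 with 28 of 36 members below 0 (46.6% of all genes). Without control 1 it was -0.36 with 30 of 36 (47.4%), and without both arrays -0.16 with 25 of 36 (55.5% of all genes). The first row of the slide held mutant 1 and the 3 controls, and within it, where the mutant arm is 1 mouse, the median was -0.25 with 28 of 36 below 0 (49.0%).

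**Figure D2:**
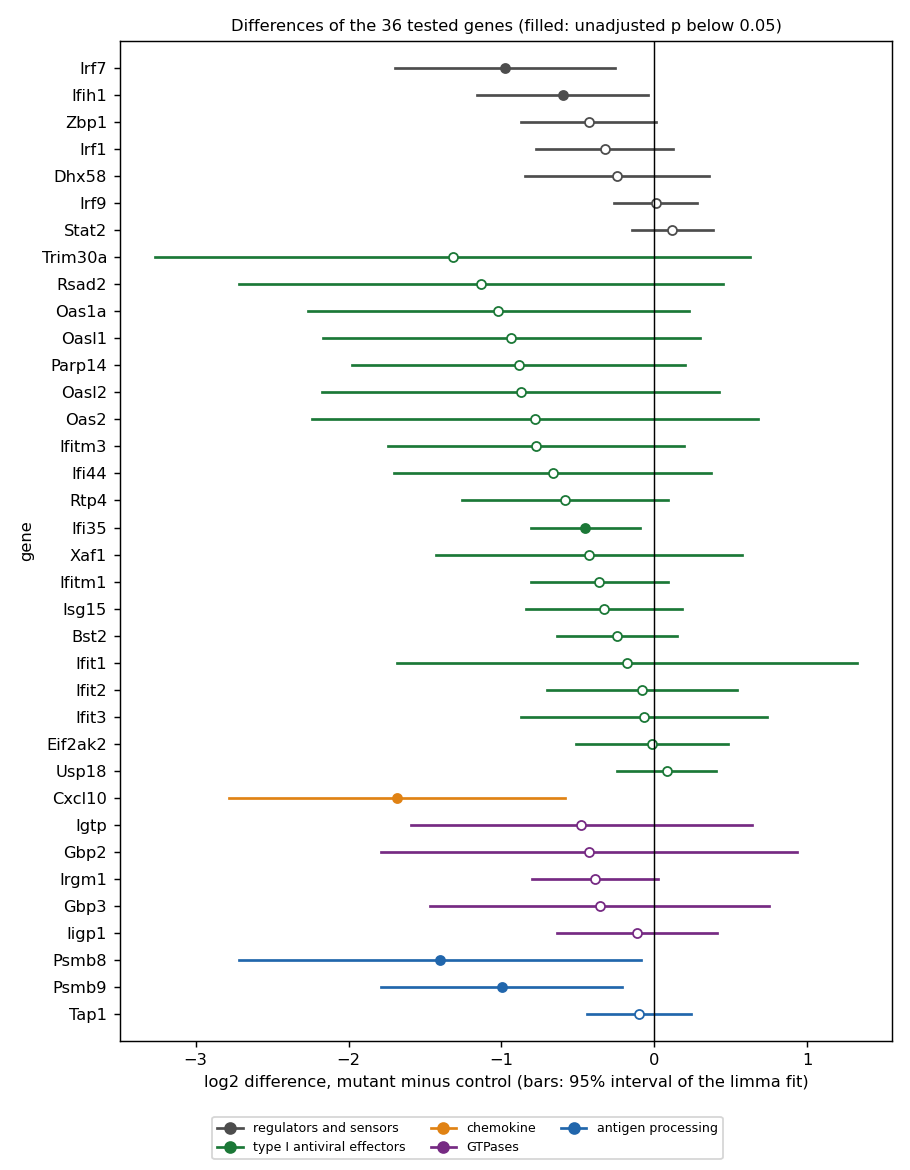
Difference of each of the 36 tested members on the log2 scale, mutant minus control, with the 95% interval of the limma fit as bars. Colours mark the 5 roles and filled points the 6 members at an unadjusted p below 0.05; 33 points lie left of 0, and the intervals of 30 members cross it.

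Among the regulators and sensors, 5 of 7 tested members lay below 0, against 40.0% of all tested genes, with a median of -0.32. At an unadjusted limma p below 0.05 were 2, each lower in mutants, against 1.88% of all, and 0 passed the adjusted threshold. Irf7, the transcription factor that amplifies type I interferon production, read -4.58, -5.22 and -4.05 in mutants 1 to 3, against -3.47, -3.86 and -3.59 in controls 1 to 3. Every mutant lay below every control, and on mutant 2 the probe was not well above background. The Irf7 difference was -0.97 (SE 0.30, 95% interval -1.69 to -0.26), an unadjusted limma p of 0.0156 and an adjusted p of 0.987. Normexp background correction, which pulls dim probes together, gave -0.47 for Irf7. Ifih1, which encodes MDA5, a cytoplasmic sensor of long double-stranded RNA, read -2.86, -3.51 and -2.70 in mutants 1 to 3, against -2.40, -2.28 and -2.60 in controls 1 to 3. Its groups did not overlap either, and the difference was -0.60 (SE 0.23, 95% interval -1.16 to -0.04), with an unadjusted limma p of 0.0395. Without mutant 2 it was -0.36.

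The listed subunits of the type I signalling complex, Stat2 and Irf9, had differences above 0. Stat2, the subunit that carries the activation domain, read 1.11, 1.04 and 1.19 in mutants 1 to 3, against 1.02, 0.95 and 1.02 in controls 1 to 3, so that each mutant lay slightly above each control. That difference of 0.12 (SE 0.11, 95% interval -0.15 to 0.38) had an unadjusted limma p of 0.318. Irf9, the DNA-binding subunit, differed by 0.01 (SE 0.11, 95% interval -0.26 to 0.28) and ranged from 0.65 to 0.78 in mutants, against 0.64 to 0.78 in controls. Irf1, a factor induced mainly by interferon gamma, read 1.56, 0.99 and 1.47 in mutants 1 to 3, against 1.605, 1.83 and 1.55 in controls 1 to 3. Mutant 2 was the lowest array and mutant 1 lay just above control 3, with a difference of -0.32 (SE 0.19, 95% interval -0.77 to 0.12). Zbp1, a sensor of left-handed nucleic acid that triggers necroptosis, differed by -0.43 (unadjusted limma p 0.0545). Dhx58, which encodes the RNA sensor LGP2, differed by -0.25 with overlapping groups, and by -0.02 without mutant 2.

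**Figure D3:**
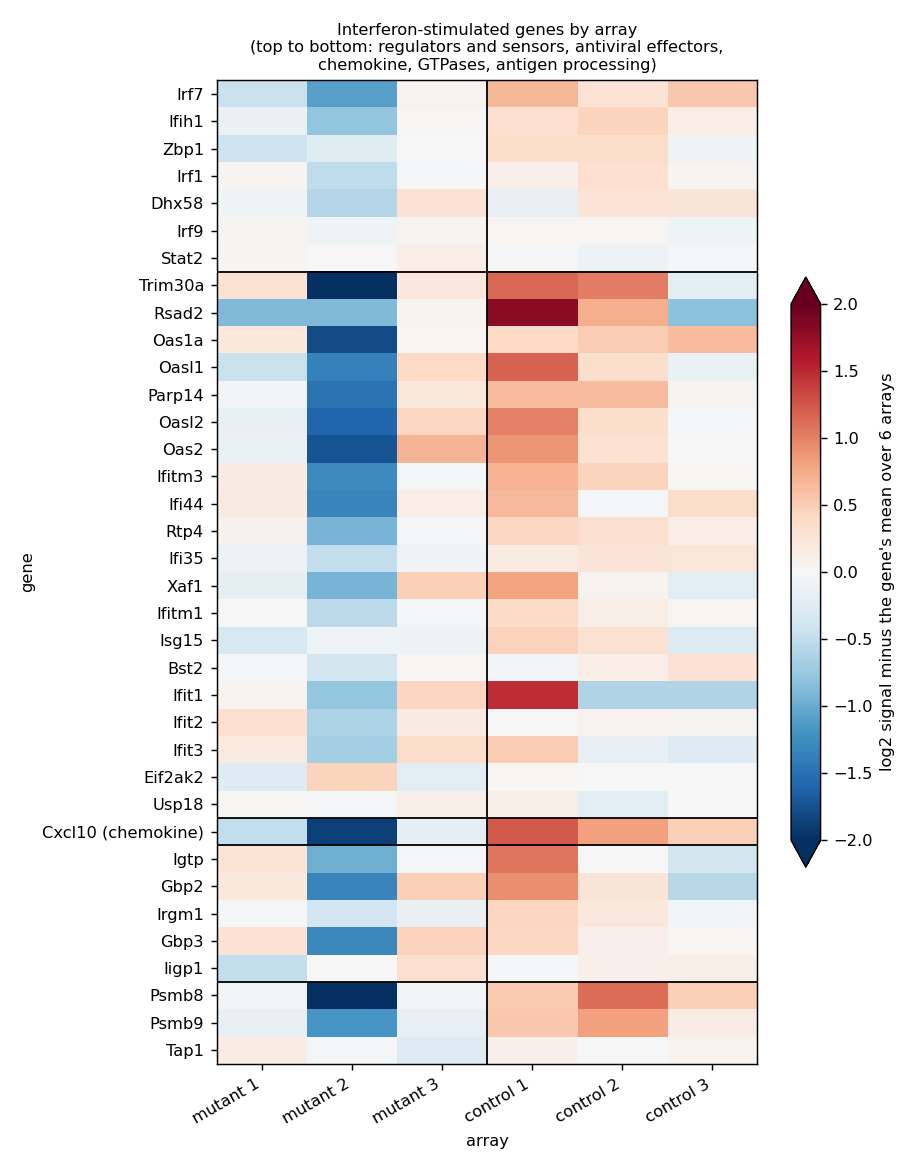
Heat map of the 36 tested members (rows, grouped by role from regulators at the top to antigen processing at the bottom) over the 6 arrays (columns, mutants left). Colour is the log2 signal minus the mean of that gene over all arrays; mutant 2 is the lowest array for 27 rows and control 1 the highest for 20.

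The antiviral effectors showed a wide spread of differences. Of 23 listed, 20 were tested and 19 of these lay below 0, against 40.0% of all tested genes. Their median was -0.52, with a range from -1.32 to 0.08. At an unadjusted limma p below 0.05 was 1 of the 20, lower in mutants, against 1.88% of all, and 0 passed the adjusted threshold. That effector was Ifi35, a small interferon-induced regulator. It read -0.67, -1.05 and -0.62 in mutants 1 to 3, against -0.38, -0.29 and -0.32 in controls 1 to 3. Controls lay within a narrow band and every mutant was below it, with a difference of -0.45 (SE 0.15, 95% interval -0.81 to -0.09), an unadjusted limma p of 0.0209 and an adjusted p of 0.987. The difference was -0.32 without mutant 2.

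Of the oligoadenylate synthetase family, active enzymes of which make the activator of RNase L, 4 members were tested. Cross-hybridisation between such paralogues, or those of the Ifit, Ifitm and Gbp families, was not tested. Oas1a, an active synthetase, read -1.05, -3.05 and -1.22 in mutants 1 to 3, against -0.87, -0.75 and -0.64 in controls 1 to 3. Every mutant was below every control, mutants 1 and 3 by little and mutant 2 by far. The Oas1a difference of -1.02 (SE 0.52, 95% interval -2.27 to 0.23) became -0.38 without mutant 2, and the second Oas1a probe gave -0.66. Oas2, another synthetase, ranged from -4.14 to -1.73 in mutants, against -2.43 to -1.53 in controls, a difference of -0.78. Oasl1 and Oasl2 differed by -0.94 and -0.88. Groups overlapped for these 3 genes, and without mutant 2 their differences were -0.11 for Oas2, -0.49 for Oasl1 and -0.30 for Oasl2.

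Genes acting at membranes were measured by 4 members. Ifitm3, a membrane protein that blocks viral fusion, read 1.79, 0.35 and 1.59 in mutants 1 to 3, against 2.33, 2.07 and 1.64 in controls 1 to 3. Mutant 1 lay above control 3, mutant 3 just below it and mutant 2 far below, with a difference of -0.77 (SE 0.40, 95% interval -1.74 to 0.20). Without mutant 2 it was -0.33. Ifitm1, its paralogue, read -0.58, -1.09 and -0.60 in mutants 1 to 3, against -0.19, -0.46 and -0.54 in controls 1 to 3. Its groups did not overlap, although the gap between the highest mutant and the lowest control was small, and the difference was -0.36 (SE 0.19, 95% interval -0.81 to 0.09) with an unadjusted limma p of 0.0979. Bst2, or tetherin, which holds budding virus at the cell surface, differed by -0.24 and ranged from 0.89 to 1.29 in mutants, against 1.21 to 1.55 in controls. Rtp4, described as a chaperone of receptors at the membrane, read -0.56, -1.58 and -0.70 in mutants 1 to 3, against -0.24, -0.33 and -0.52 in controls 1 to 3. Here too every mutant lay below every control, and the difference was -0.59 (SE 0.28, 95% interval -1.26 to 0.09), or -0.27 without mutant 2.

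Rsad2, which encodes viperin, an enzyme that makes a chain-terminating nucleotide, varied most among controls (SD 1.32, n = 3). It ranged from -2.55 to -1.60 in mutants, against -2.48 to 0.13 in controls. Control 1 was the highest array and control 3 lay within the mutants' range. The Rsad2 difference was -1.14 (SE 0.66, 95% interval -2.72 to 0.45), and -0.52 without control 1. Trim30a, a regulator of innate signalling, read -4.23, -7.03 and -4.33 in mutants 1 to 3, against -3.38, -3.51 and -4.74 in controls 1 to 3. On mutant 2 it was not well above background, and control 3 lay below mutants 1 and 3. Its difference of -1.32 (SE 0.81, 95% interval -3.27 to 0.63) was -0.40 with normexp correction and -0.40 without mutant 2. It was the largest among effectors in the main processing, and Rsad2 was larger in both of these settings, at -0.92 and -0.98. Parp14, an ADP-ribosyltransferase, differed by -0.89, or -0.37 without mutant 2. Ifi44 differed by -0.67, or -0.17 without mutant 2, on which array its probe was not well above background.

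Isg15, a ubiquitin-like modifier, ranged from -0.05 to 0.19 in mutants, against -0.01 to 0.73 in controls, a difference of -0.33 (SE 0.21, 95% interval -0.84 to 0.18). A second Isg15 probe gave -0.50. Usp18, the protease that removes ISG15 and restrains the type I receptor, read -3.04, -3.09 and -2.95 in mutants 1 to 3, against -2.94, -3.30 and -3.07 in controls 1 to 3. The groups overlapped and the difference was 0.08 (SE 0.13, 95% interval -0.24 to 0.40). Eif2ak2, the kinase PKR, differed by -0.01 and was highest on mutant 2. The Ifit genes, whose products bind viral RNA, differed by -0.18 for Ifit1, -0.08 for Ifit2 and -0.07 for Ifit3. Ifit1 was well above background on 2 mutant arrays and 1 control array. Without mutant 2 the differences of Ifit1, Ifit2 and Ifit3 were 0.16, 0.21 and 0.25. Xaf1, a proapoptotic gene, differed by -0.43 on its chosen probe, or -0.07 without mutant 2. A second Xaf1 probe behaved differently. It read -1.70, -7.32 and -1.46 in mutants 1 to 3, against -7.41, -1.64 and -1.93 in controls 1 to 3, so that mutant 2 and control 1 were near the lowest readings of the array and the other 4 were not.

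Cxcl10, a chemokine that draws activated T cells and is induced by both kinds of interferon, had the largest difference of all members on this scale. It read -4.00, -5.37 and -3.68 in mutants 1 to 3, against -2.28, -2.68 and -3.03 in controls 1 to 3. Each mutant lay below each control, and the probe was not well above background on mutant 2. The group means were -4.35 ± 0.90 in mutants and -2.67 ± 0.38 in controls (SD, n = 3 each). The difference was -1.69 (SE 0.46, 95% interval -2.78 to -0.59), with an unadjusted limma p of 0.00897, an adjusted p of 0.987 and an exact permutation p of 0.1, the smallest that 3 arrays against 3 allow. It was -1.17 without mutant 2, -1.49 without control 1 and -0.64 with normexp correction. With that correction Psmb8 (-1.04), Rsad2 (-0.92), Psmb9, Ifitm3 and Oas1a had larger differences. The Cxcl10 unadjusted limma p lay between 0.00479 and 0.0352 when any single array was left out. The largest such limma p passed 0.05 for the other 5 of these members. It was 0.0519 for Irf7 without control 1. Without control 2 it was 0.111 for Psmb8, 0.0669 for Psmb9, 0.0651 for Ifi35 and 0.111 for Ifih1.

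**Figure D4:**
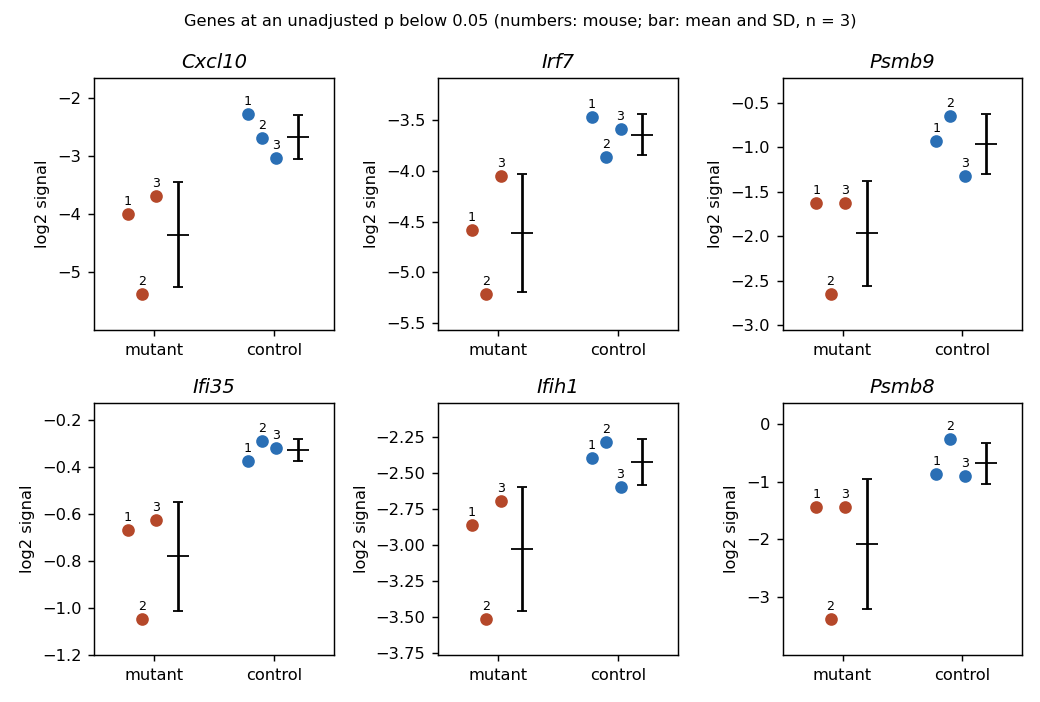
Log2 signal, relative to the 75th percentile of the array, of the 6 members at an unadjusted p below 0.05, with mutants left and controls right. Points are mice, numbered 1 to 3, and bars give the mean and SD (n = 3); in each panel mutant 2 is the lowest point and no mutant reaches a control.

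The GTPases attack the vacuoles of intracellular pathogens and are induced mainly by interferon gamma. They were below 0 for 5 of 5 genes, against 40.0% of all tested genes. Of the 5, 0 had an unadjusted limma p below 0.05, against 3.43% of all. Their median was -0.39. Igtp read -0.93, -2.18 and -1.23 in mutants 1 to 3, against -0.14, -1.19 and -1.58 in controls 1 to 3. Control 1 was highest and control 3 lay below mutants 1 and 3, with a difference of -0.48 (SE 0.46, 95% interval -1.59 to 0.64). It was -0.11 without mutant 2, -0.06 without control 1 and 0.30 without both arrays. Iigp1, an effector at the pathogen vacuole, read -0.06, 0.42 and 0.76 in mutants 1 to 3, against 0.38, 0.54 and 0.54 in controls 1 to 3, a difference of -0.12 (SE 0.22, 95% interval -0.64 to 0.41). A second Iigp1 probe was well above background on control 1 and on no other array. Irgm1, a regulatory GTPase, differed by -0.39 (SE 0.17, 95% interval -0.80 to 0.03) with an unadjusted limma p of 0.062. A second, dimmer Irgm1 probe gave -0.09. The guanylate-binding proteins Gbp2 and Gbp3 differed by -0.43 and -0.36, and without mutant 2 these values turned to 0.13 for Gbp2 and 0.20 for Gbp3.

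Antigen-processing genes were below 0 for 3 of 3 genes, where 40.0% of all tested genes were. At an unadjusted p below 0.05 were 2 of them, against 1.88% of all tested genes with lower signal in mutants. Psmb8 and Psmb9 encode inducible catalytic subunits of the immunoproteasome, which cuts proteins into peptides for MHC class I. Psmb8 read -1.44, -3.38 and -1.44 in mutants 1 to 3, against -0.87, -0.27 and -0.91 in controls 1 to 3. Every mutant lay below every control, mutant 2 by far, and the difference was -1.40 (SE 0.55, 95% interval -2.72 to -0.09), 2.64-fold lower, with an unadjusted limma p of 0.0397 and an adjusted p of 0.987. It was -0.76 without mutant 2. Psmb9 read -1.62, -2.65 and -1.62 in mutants 1 to 3, against -0.93, -0.65 and -1.32 in controls 1 to 3. These groups did not overlap, with a difference of -0.999 (SE 0.33, 95% interval -1.79 to -0.21), an unadjusted limma p of 0.0205 and a value of -0.66 without mutant 2.

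Tap1, a subunit of the transporter that carries those peptides into the endoplasmic reticulum, is the divergent neighbour of Psmb9. Their promoter windows share 275 bases and their starts lie 226 bases apart. Tap1 read -2.94, -3.14 and -3.36 in mutants 1 to 3, against -3.003, -3.11 and -3.03 in controls 1 to 3. The groups overlapped, mutant 3 and not mutant 2 was lowest, and the difference was -0.10 (SE 0.14, 95% interval -0.44 to 0.24). Whether it differs from the Psmb9 difference was not tested. The 16 tested members with an ISRE core had a median of -0.41, and the 13 with a window and no core had a median of -0.45.

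As classes, the 28 tested members tied to the type I response (regulators, effectors and Cxcl10) had a median of -0.44, and the 8 GTPase and antigen-processing members had a median of -0.41. Without mutant 2 the medians were -0.25 and -0.12. A list was scored on each array by centring each gene on its own 6-array mean and averaging over the list. For the type I class it was -0.09, -0.86 and 0.13 in mutants 1 to 3, against 0.55, 0.25 and 0.02 in controls 1 to 3. For the GTPase and antigen-processing class it was 0.02, -0.90 and 0.08 in mutants 1 to 3, against 0.49, 0.33 and -0.02 in controls 1 to 3. In both classes mutant 2 was lowest by a wide margin, controls 1 and 2 were highest, and control 3 lay among mutants 1 and 3 or just below them.

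Single arrays marked most members. Mutant 2 was the lowest array for 27 of 36 members, against 18.7% of all tested genes, and control 1 the highest for 20 of 36, against 15.1%. Over all tested genes the pattern ran the other way, with mutant 2 the highest array for 38.0% and control 1 the lowest for 34.6%. The difference was smaller in size without mutant 2 for 27 of 36 members, and it moved by over 1.5 times or turned its sign for 25. The sign turned for 5 members, which were Gbp2, Gbp3, Ifit1, Ifit2 and Ifit3.

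Genes upstream of the members were read from lists of the pathway. Of 21 genes for interferons and interleukins that induce them, 9 were tested, all 9 well above background on 6 of 6 arrays. Their median difference was 0.05, with 2 below 0, against 40.0% of all tested genes, and 7 above. At an unadjusted limma p below 0.05 were 0, against 3.43% of all. Cross-hybridisation between the paralogues among these interferon genes was not tested. Ifnb1 and Ifng, which encode interferon beta and gamma, were well above background on 0 of 6 arrays. Of 17 receptor and JAK-STAT genes, 13 lay below 0, against 40.0% of all tested genes, with a median of -0.14. The groups did not overlap for 5 of the 17, with lower mutant values, against 3.75% of all. At an unadjusted limma p below 0.05 was 1, lower in mutants, against 1.88% of all. That gene was Socs3, a feedback inhibitor of cytokine receptors, which read 1.53, 1.40 and 1.43 in mutants 1 to 3, against 1.79, 1.90 and 1.89 in controls 1 to 3. Its groups did not overlap, and the difference was -0.41 (SE 0.11, 95% interval -0.67 to -0.15), with an unadjusted limma p of 0.00852 and an adjusted p of 0.987.

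Nucleic acid sensing and induction genes had a median of -0.02, with 12 of 21 tested genes below 0, against 40.0% of all. Groups did not overlap for 3 with lower mutant values and 1 with higher, against 3.75% and 5.19% of all. At an unadjusted limma p below 0.05 was 1 gene, lower in mutants, against 1.88% of all. That gene was Myd88, the adaptor of Toll-like receptors. It differed by -0.41 (SE 0.15, 95% interval -0.78 to -0.05). A list of 65 further interferon-stimulated genes had 52 tested, of which 39 lay below 0, against 40.0% of all, with a median of -0.32. Of these 52, 5 had an unadjusted limma p below 0.05, all lower in mutants (1.88% of all tested genes), and 0 passed the adjusted threshold. Groups did not overlap for 9, with lower mutant values, against 3.75% of all. Cd274, the checkpoint ligand PD-L1, differed by -0.84 (SE 0.17, 95% interval -1.24 to -0.44), with 2 of 3 mutant arrays well above background. The guanylate-binding protein Gbp7 differed by -0.59, the GTPase Ifi47 by -0.82, and B2m, the light chain of MHC class I, by -0.44, each with groups that did not overlap. Mutant 2 had the lowest score in the receptor (-0.22), sensing (-0.18) and further (-0.53) lists.

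Markers of other cell types moved with the same arrays. The macrophage score was -0.02, -1.42 and 0.03 in mutants 1 to 3, against 0.47, 0.67 and 0.26 in controls 1 to 3. Mutant 2 was lowest here too, as in the osteoclast list (-1.81) and the endothelial list (-1.09), and in these 3 lists every mutant score lay below every control score. Of 13 tested macrophage markers 12 lay below 0, against 40.0% of all tested genes, with a median of -1.03. Groups did not overlap for 7 of 13 macrophage, 6 of 10 osteoclast and 5 of 11 endothelial markers. All of these had lower mutant values, against 3.75% of all. At an unadjusted limma p below 0.05 were 3 macrophage, 3 osteoclast and 2 endothelial markers, each lower in mutants, against 1.88% of all, and 0 passed the adjusted threshold. Summed macrophage signal, in units of the array's 75th percentile, ran from 11.9 to 31.9 in mutants, against 35.3 to 43.3 in controls. Much of that sum is the Csf1r probe, which differed by -0.91. Adgre1, which encodes the macrophage antigen F4/80, read -0.25, -2.47 and -0.40 in mutants 1 to 3, against 0.13, 0.22 and -0.43 in controls 1 to 3. Mutant 2 stood far below the other arrays for it too. No tested macrophage marker was at background on any array. The part of these cells in the members' differences was not tested.

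Skeletal muscle, adipocyte and osteoblast markers were also lowest on mutant 2. The skeletal muscle score was 1.41, -2.46 and 0.43 in mutants 1 to 3, against 2.35, -0.81 and -0.92 in controls 1 to 3. Mutant 2 was the lowest array and control 1 the highest for 7 of 7 muscle markers. Counted separately among the 36 tested members, mutant 2 was the lowest for 27 and control 1 the highest for 20. Summed muscle signal ran from 23.2 to 378 in mutants, against 81.1 to 633 in controls. The adipocyte score was 0.49, -2.17 and 0.95 in mutants 1 to 3, against 0.94, 0.00 and -0.22 in controls 1 to 3, with mutant 2 lowest for 5 of 5 tested markers. Summed adipocyte signal ran from 2.98 to 17.8 in mutants, against 10.4 to 19.5 in controls. The osteoblast score was -0.99 on mutant 2 and between -0.05 and 0.49 on the other 5 arrays. Mutant and control scores overlapped in these 3 lists, and the part of such tissue in the members' differences was not tested.

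Neutrophil, B lymphocyte and erythroid scores instead set controls 1 and 2 apart. The neutrophil score was -1.25, -0.72 and -0.22 in mutants 1 to 3, against 1.83, 1.01 and -0.65 in controls 1 to 3, and control 3 lay within the mutants' range. Of 13 tested neutrophil markers 12 lay below 0, against 40.0% of all tested genes. Summed neutrophil signal ran from 214 to 271 in mutants, against 256 to 366 in controls. Much of that sum is the Csf3r probe, which differed by 0.04; without it the sum ran from 21.6 to 37.9 in mutants, against 30.2 to 178 in controls. Summed B lymphocyte signal ran from 2.56 to 4.23 in mutants, against 3.45 to 11.7 in controls. Summed erythroid signal ran from 62.3 to 116 in mutants, against 70.0 to 341 in controls. Much of the erythroid sum is the Hba-a1 probe, which differed by -0.95. In the B lymphocyte and erythroid lists 9 of 9 tested markers each lay below 0, against 40.0% of all tested genes. T and NK cell markers lay below 0 in 5 of 7 tested cases, against 40.0% of all tested genes. Of the 12 listed T and NK cell markers, 4 were too dim to test, which were Cd3d, Cd3g, Ncr1 and Klrb1c. Of the B lymphocyte markers, Pax5 and Rag1 were too dim to test. Of the tested plasmacytoid dendritic cell markers 3 of 6 lay below 0, which were Siglech, a lectin of these cells (-0.11), Ly6d (-1.23) and Bst2, itself a member. The other 3, Tcf4 (0.02), Pacsin1 (0.03) and Runx2 (0.11), lay above 0. Ccr9 and Klk1 of that list were too dim to test. Chondrocyte markers lay above 0 in 12 of 13 cases and below 0 in 1, where 40.0% of all tested genes lay below 0. Their score was 0.40 on mutant 2 and -0.33 on control 1. The part of these cell types in the members' differences was not tested either.

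**Figure D5:**
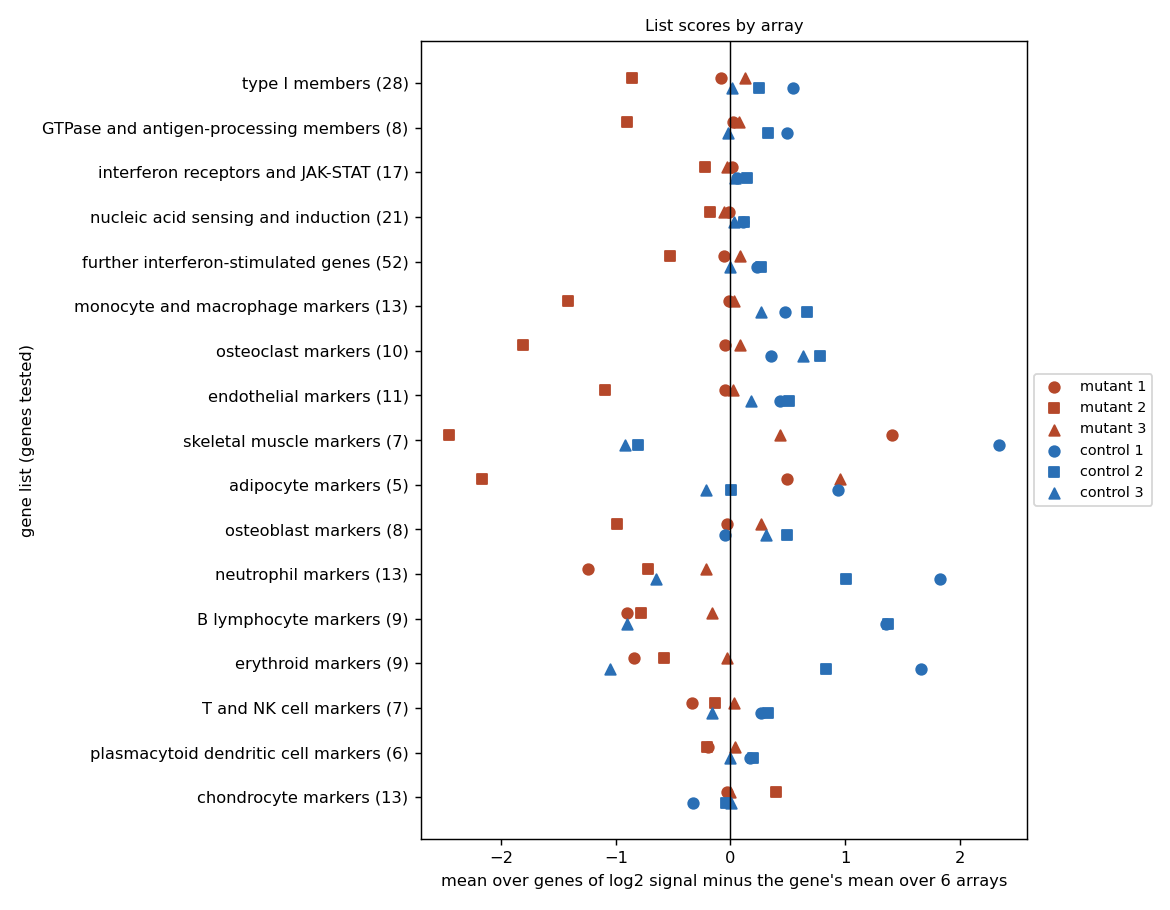
List scores of each array for the 2 classes of members, 3 pathway lists and 12 cell type marker lists, with the number of genes tested in parentheses. The horizontal axis is the mean log2 signal relative to each gene's own mean, with mutants red and controls blue. Mutant 2 (red square) lies lowest in both member classes and the 3 pathway lists. It is also lowest in the macrophage, osteoclast, endothelial, skeletal muscle, adipocyte and osteoblast lists, and by little in the plasmacytoid dendritic cell list.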

How the data were processed

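RNA of tibial cartilage from 3 mutant and 3 control mice was hybridised to Agilent 1-colour arrays; the design text calls them biological replicates. Per the file headers and the submitters' processing notes, the deposited intensity values came from Agilent Feature Extraction 10.7.1.1, which had subtracted background and not normalized between arrays. A table of values, also deposited, held for each probe the linear ratio of its signal to the 75th percentile of its array; this was inferred from the numbers (r = 1.00 with the processed signal), and the table served as an alternative. Here outlier spots were dropped, the log2 processed signal was set relative to the 75th percentile of each array's non-control spots, and spots of a probe were averaged. Accessions were matched to a RefSeq table of GRCm38.p6, which named 27656 of 55681 probes. The array design refers to another build, so no probe coordinates are given. Genes well above background on at least 3 of 6 arrays were tested with limma 3.58.1 in R 4.3.3 (two-sided, Benjamini-Hochberg over all 25480, threshold 0.05). The fit was tested on simulated data. The number of arrays limits the precision. Members and lists were chosen with earlier results of these data known. All 39 members could be named; arrays are given singly for members at an unadjusted p below 0.05, with separated groups, or with the highest signal or largest difference of their role. Pathway genes are named by smallest p, with Adam10 and defining markers added; some genes of these lists are not reported here. Second probes exist for 8 members. Alternatives changed scaling, background correction, filter, probe choice, weights, blocks and single arrays.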

Additional observations from a re-analysis of the deposited data

How the results depend on the processing

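The number of members past the adjusted threshold was 0 under every alternative run. Members at an unadjusted limma p below 0.05 numbered 10 with array weights and between 2 and 10 when single arrays were left out, against 6. The shares of all tested genes at that threshold under the alternatives are not given here, so these counts are not read against a background. The slide row as a block and the first slide row alone estimate mutant 1 against the 3 controls, assumed to vary like them. Mutants 2 and 3 add nothing to that difference, so no count is given for these settings. The cause of the other shifts was not tested. With array weights limma called 4 of all tested genes past the adjusted threshold, and 0 otherwise. In the main fit 875 had an unadjusted limma p below 0.05, or 3.43%. The median of the members stayed below 0 under all alternatives, from -0.63 without mutant 3 to -0.16 without control 1 and mutant 2 together; it was -0.34 with normexp and percentile scaling. The median of the type I members ran from -0.63 to -0.16 and that of the GTPase and antigen-processing members from -0.65 to -0.12. Of the 36 tested members, 23 kept the sign of their difference under all alternatives that could be fitted, Cxcl10, Irf7, Psmb8, Psmb9, Ifi35 and Ifih1 among them. The replicate numbers did not pair the arrays (correlations of deviations 0.21, 0.06 and -0.16), and with the replicate block 5 members had an unadjusted p below 0.05. Well-above-background filtering on all 6 arrays left 31 members. Dim probes such as Irf7, Ifi44, Trim30a and Cxcl10, at background on mutant 2, and Ifit1 carry less weight than bright ones.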
